A study of Mus musculus with 5 samples.

Results

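The 245 best-expressed long non-coding RNA (lncRNA) genes of mouse Neuro-2A (N2A) neuroblastoma cells are described here, with their levels after knockdown of Upf1. They were chosen by measured values: every gene typed as lncRNA in the count table with a summed raw count of at least 500 over the 5 libraries, of 10209 lncRNA genes in the table and 4701 with at least 1 read. Genes of the Snhg family, Gas5, Zfas1 and Epb41l4aos, which host small nucleolar RNAs (snoRNAs), were left out by name, and 14 of them passed the same minimum. N2A is a line derived from a mouse neuroblastoma. The cells were transfected with 60 pmol of either a commercial negative control siRNA (siCtl, 2 libraries, replicates 1 and 3) or an siRNA against Upf1 (siUpf1, 3 libraries, replicates 1, 2 and 3). Polyadenylated RNA was sequenced with strand kept, and between 20402205 and 27717594 reads per library were assigned to genes. All libraries come from a single line and a single Upf1 siRNA, and nothing in the labels says that replicates were separate cultures, so p-values measure the spread between these libraries.

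LncRNAs are mostly transcribed by RNA polymerase II, capped, spliced and polyadenylated like mRNAs, but hold no long open reading frame. Some stay in the nucleus, where they scaffold nuclear bodies or silence genes in cis, and others reach the cytoplasm, where ribosomes can engage their short reading frames. UPF1 is the RNA helicase at the centre of nonsense-mediated decay (NMD), a translation-dependent pathway that removes RNAs on which translation ends early, and it acts in other decay pathways too. The question asked of these genes is which of them changed in level when Upf1 was knocked down.

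Upf1 itself had 5217 and 5243 normalised counts in the siCtl libraries and 2403, 2496 and 2449 in the siUpf1 libraries. Its log2 fold change was -1.10 ± 0.05 (SE; DESeq2's Wald test with Benjamini-Hochberg adjustment, adjusted p = 7.09e-101). Normalised counts are raw counts divided by a size factor per library, and calls are genes with an adjusted p under 0.05. Of 14 neuroblast markers 12 had at least 500 summed reads, and their summed level was 52085 to 52179 in siCtl and 64002 to 67632 in siUpf1. The sum was higher in every siUpf1 library, but the markers did not all move. Of the 14, 8 were called higher, among them Isl1 (1.80), and 1 lower (Stmn2, -0.16), where 28.1% and 29.3% of genes with at least 500 reads were. Chga and Tubb3 were at -0.04 and -0.05 and not called. Nefm and Nefl had at most 50 reads. Of 10 markers of other cell types 2 reached 500 reads (Mbp and Pecam1), Mog and Cx3cr1 were at 0, and the summed level was 649 to 697 in siCtl and 632 to 673 in siUpf1. Pecam1, an endothelial marker, was called lower, from a mean of 208 to 121 (-0.78), and Mbp was at 0.22 and not called. What part these marker changes have in the changes of the lncRNA genes was not tested. In bulk libraries such as these, fewer cells that make an RNA and less of it per cell cannot be told apart.

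More of the lncRNA genes were higher than lower after Upf1 knockdown. Of the 245, 67 were called higher and 24 lower, and 154 were not called. Over all 15191 genes tested, 22% were called higher and 22.9% lower, and among the 10985 genes of any type with at least 500 reads these shares were 28.1% and 29.3%. Of the lncRNA genes, 27.3% were called higher and 9.80% lower. The share called higher was thus not above that of genes with at least 500 reads, while the share called lower was under both backgrounds. The median summed count of the lncRNA genes was 924, against 5622 for protein-coding genes above the minimum, and shares at matched abundance are given below. Their median log2 fold change was 0.16, against 0.00 over all genes tested and -0.01 over 10568 protein-coding genes with at least 500 reads. By library, the median log2 ratio of the lncRNA genes to their siCtl mean was 0.15, 0.11 and 0.16 in siUpf1 replicates 1, 2 and 3. The groups did not overlap in normalised counts for 161 of the 245 genes, 111 with siUpf1 above and 50 with siUpf1 below, where 69.4% of all genes tested did not overlap.

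**Figure D1:**
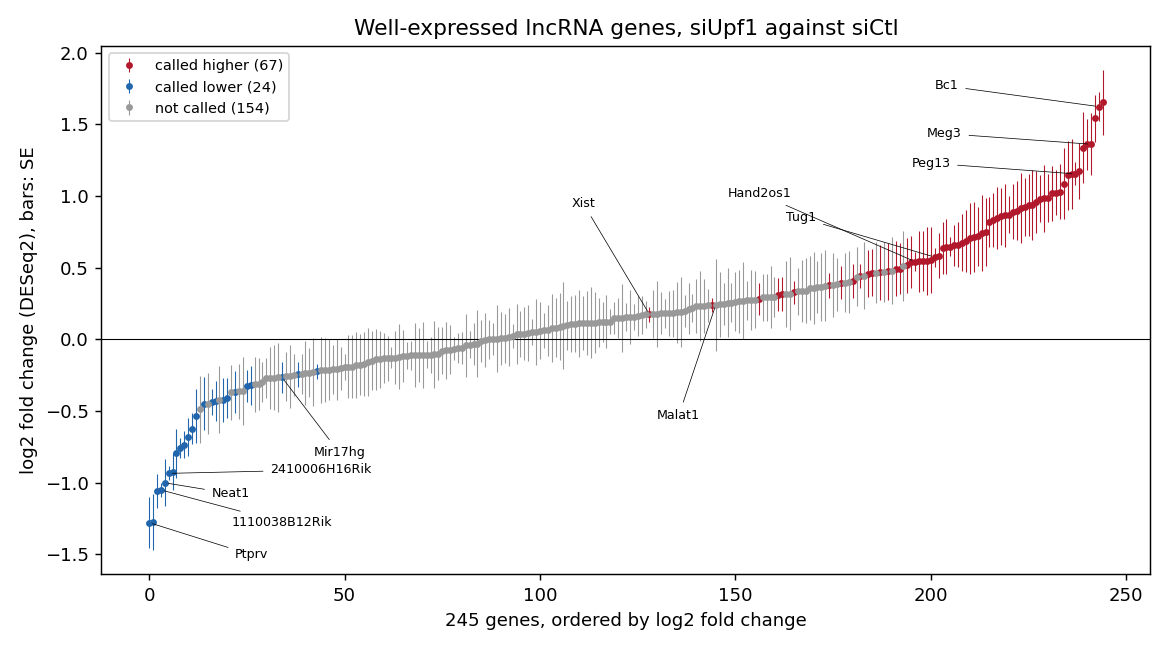
The 245 lncRNA genes in order of their log2 fold change in siUpf1 against siCtl (points, with DESeq2's SE as bars), in red for the 67 called higher, blue for the 24 called lower and grey for the 154 not called. The largest changes were just above 1.5 (Bc1 at 1.62), the smallest near -1.3 (Ptprv at -1.28), and Malat1 lay at 0.24 with a wide bar.

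The minimum of 500 reads bears on these counts, because siUpf1 gave 3 of the 5 libraries. In 205 genes both group means were at least 100 normalised counts, and 48 of these were called higher and 24 lower, with a median log2 fold change of 0.11. Another 31 genes had a siUpf1 mean of at least 100 but a siCtl mean under it. These passed through the group where they were high, and 19 were called higher. The remaining 9 had only the siCtl mean at 100 or above and none was called. The genes just inside the minimum were 2610028E06Rik with 501 reads (log2 fold change 0.55) and 1300002E11Rik with 502 (0.51), and those just outside were Gm13375 with 499 (-0.32) and A230057D06Rik with 497 (-0.08).

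The balance of calls moved with abundance. Of 135 lncRNA genes with 500 to 999 reads, 38 were called higher and 3 lower (Gm45589, Gm7967 and Gt(ROSA)26Sor), where 19.4% and 18.9% of 867 protein-coding genes in the same range were called. Among the 38 are all 19 genes called higher that passed the minimum through the siUpf1 libraries. The count of this range thus leans on the minimum. Of 57 lncRNA genes with at least 2000 reads, 18 were called higher and 13 lower, where 29.5% and 32.3% of 8471 protein-coding genes were. In the range between, 11 of 53 lncRNA genes were higher (20.8%) and 8 lower (15.1%), where 25.4% and 21.2% of 1230 protein-coding genes were. In that range the share called higher was thus not above that of protein-coding genes.

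**Figure D2:**
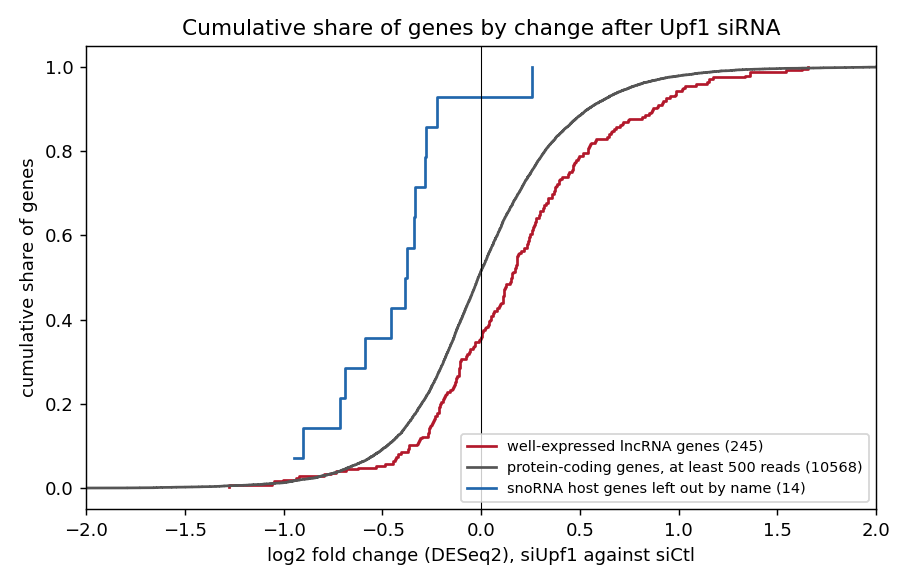
Cumulative share of genes (vertical axis) by log2 fold change in siUpf1 against siCtl (horizontal axis) for the 245 lncRNA genes, 10568 protein-coding genes with at least 500 reads and the 14 snoRNA host genes left out by name. The lncRNA curve lies to the right of the protein-coding curve over most of its range (medians 0.16 and -0.01), and the host genes lie to the left (median -0.38).

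The snoRNA host genes left out by name went the other way. Of 14, 12 were called lower and 1 higher, with Zfas1 at -0.95, Snhg12 at -0.90, Snhg6 at -0.72 and Gas5 at -0.69 on the log2 scale, Snhg20 higher at 0.25, and Snhg4 at -0.22 and not called (adjusted p = 0.0606 by DESeq2).

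The neuronal RNA Bc1 was among the largest rises and had the lowest adjusted p of those called higher. BC1 is a short RNA made by RNA polymerase III from a tRNA-derived retroposon, carried into dendrites, where it represses translation. Its gene lies at chr7:144914470-144914637 on the plus strand (GRCm38) as a single exon of 168 nt, the shortest of the 245. The whole RNA is shown because it is short and holds an internal A-rich stretch, in libraries made from polyadenylated RNA. Capitals mark the longest stretch that is at least 80% A, 49 A in 60 bases at positions 77 to 136.
Bc1: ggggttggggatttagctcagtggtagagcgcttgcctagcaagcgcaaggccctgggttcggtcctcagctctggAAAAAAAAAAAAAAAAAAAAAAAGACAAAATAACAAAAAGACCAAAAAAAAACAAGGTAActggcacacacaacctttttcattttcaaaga

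Bc1 had 449 and 452 normalised counts in siCtl and 1278, 1580 and 1317 in siUpf1. Every siUpf1 library was far above both siCtl libraries, and the log2 fold change was 1.62 ± 0.10 (SE, adjusted p = 3.42e-55 by DESeq2). Per kilobase of exon, its siCtl mean of 2680 normalised counts was well above the middle of the 245 genes, where 9330188P03Rik stood at 73.8.

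Most of the other large rises were of genes at lower levels. Gm29260, an intergenic gene at chr1:41781808-41939560, had 60.8 and 92.5 normalised counts in siCtl and 297, 210 and 218 in siUpf1 (1.65 ± 0.22, the largest of the 245). E130307A14Rik, which starts 111 bases from Rev3l, the catalytic subunit of a translesion DNA polymerase, had 110 and 128 in siCtl and 325, 351 and 368 in siUpf1 (1.54 ± 0.16). Rev3l was at -0.10 and not called. Eldr, named for its place downstream of the Egfr gene, had 99.6 and 127 in siCtl and 310, 274 and 292 in siUpf1 (1.36 ± 0.18). 9530059O14Rik had 97.5 and 80.2 in siCtl and 151, 221 and 300 in siUpf1 (1.34 ± 0.25), so its libraries spread more widely than those of the others, and its adjusted p without siCtl replicate 3 was 0.0866 by DESeq2. C130073E24Rik had 122 and 89.6 in siCtl and 246, 212 and 253 in siUpf1 (1.18 ± 0.19). In all, 14 genes were called higher by at least 1 log2 unit and 5 lower by as much. Gm29260 and 9530059O14Rik had siCtl means under 100 (76.6 and 88.8), so they passed the minimum through the siUpf1 libraries, where they were high. The same holds for Meg3, BC048644, Gm39244 and Gm20163 among the 14, so that count leans on the minimum.

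**Figure D3:**
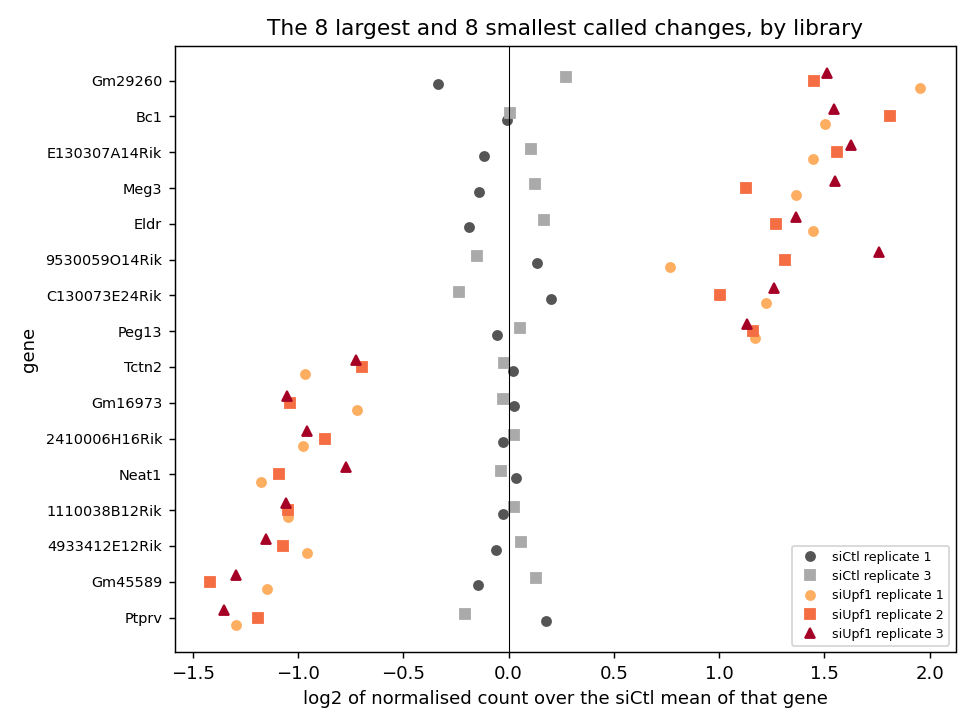
Normalised count in each library over the siCtl mean of the same gene, on a log2 scale, for the 8 largest and 8 smallest called changes (grey for siCtl, orange to dark red for siUpf1). All 3 siUpf1 libraries lie on 1 side of both siCtl libraries for each gene, which the choice of these genes required, and 9530059O14Rik shows the widest spread, from 151 to 300 normalised counts.

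Of the 9 imprinted lncRNAs listed 5 were well expressed, and each was called higher, where 22% of all genes tested were. Meg3, with a siCtl mean of 78.6 normalised counts, passed the minimum through the siUpf1 libraries, where it was high, and so adds nothing to that count. Imprinted lncRNAs are transcribed from 1 parental allele and often silence or mark their neighbours in cis. Meg3, the maternally expressed RNA of the Dlk1-Dio3 domain, had 71.3 and 85.9 normalised counts in siCtl and 203, 172 and 230 in siUpf1 (1.36 ± 0.22, adjusted p = 1.82e-09). Rian, transcribed from the same domain, had 133 and 128 in siCtl and 183, 202 and 159 in siUpf1 (0.47 ± 0.19, adjusted p = 0.0367). The rise of Rian was the smaller of the pair, and its adjusted p in DESeq2 reached 0.374 among the alternatives. Both lie on chromosome 12.

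Peg13, which lies within an intron of Trappc9 at chr15:72805600-72810324, had 639 and 691 normalised counts in siCtl and 1499, 1490 and 1457 in siUpf1 (1.15 ± 0.08, adjusted p = 1.56e-45), the tightest of the imprinted genes. Nespas, antisense to the Gnas locus, had 147 and 142 in siCtl and 213, 237 and 354 in siUpf1 (0.90 ± 0.21), and Gnas, the Gs alpha subunit, was called higher too, at 0.42. Kcnq1ot1, the paternally expressed antisense RNA that silences the Kcnq1 domain, had 673 and 595 in siCtl and 956, 876 and 1353 in siUpf1 (0.74 ± 0.27, adjusted p = 0.0131). For Nespas and Kcnq1ot1 the third siUpf1 library was the highest by a wide margin. Without it their values were 0.64 and 0.54, both still called, while Kcnq1ot1 was not called by DESeq2 without siCtl replicate 1 (adjusted p = 0.0920) or replicate 3 (0.1996).

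Nuclear and chromatin-associated lncRNAs moved in different directions. Of 15 listed, 7 were well expressed, 2 were called higher (Tug1 and Kcnq1ot1) and 1 lower (Neat1), with a median of 0.12. The shares over all genes tested were 22% higher and 22.9% lower. Neat1, the RNA that builds paraspeckles, had 3562 and 3381 normalised counts in siCtl and 1536, 1632 and 2033 in siUpf1, that is 49.9% of siCtl (-1.001 ± 0.164, adjusted p = 7.80e-09). The groups did not overlap, and without siUpf1 replicate 3 the value was -1.13. Malat1, the RNA of nuclear speckles that neighbours Neat1 on chromosome 19, had 7912 and 6336 in siCtl and 6284, 7965 and 11035 in siUpf1, so the groups overlapped and no change was called (0.24 ± 0.32, adjusted p = 0.583). Without siUpf1 replicate 3 the Malat1 value was 0.00. Tug1, a chromatin-associated and cytoplasmic RNA, had 1433 and 1351 in siCtl and 2098, 2001 and 2110 in siUpf1 (0.57 ± 0.07, adjusted p = 8.87e-17).

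Lncpint had 156 and 141 normalised counts in siCtl and 121, 129 and 230 in siUpf1, with siUpf1 replicates 1 and 2 below siCtl and replicate 3 above it (0.12 ± 0.25, -0.25 without replicate 3). Pvt1, next to Myc, was at 0.12 ± 0.09 and Bvht, a lncRNA of heart development, at 0.04 ± 0.16, and neither was called. Over the 245 genes, the log2 ratio of siUpf1 replicate 3 to the mean of replicates 1 and 2 had a median of 0.00 and an SD of 0.20, and 6 genes exceeded 0.5: Lncpint (0.88), 9530059O14Rik (0.69), Nespas (0.65), Malat1 (0.63), 2610037D02Rik (0.60) and Kcnq1ot1 (0.56). The other siUpf1 libraries departed too. Replicate 1, set against the mean of the other two, was more than 0.5 below in 7 genes, Malat1, Lncpint, 9530059O14Rik and Gm42418 among them, and above in 1 (SD 0.21). Replicate 2 was above by as much in 3 genes and below in 2 (SD 0.21). What set any library apart for these genes was not tested.

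**Figure D4:**
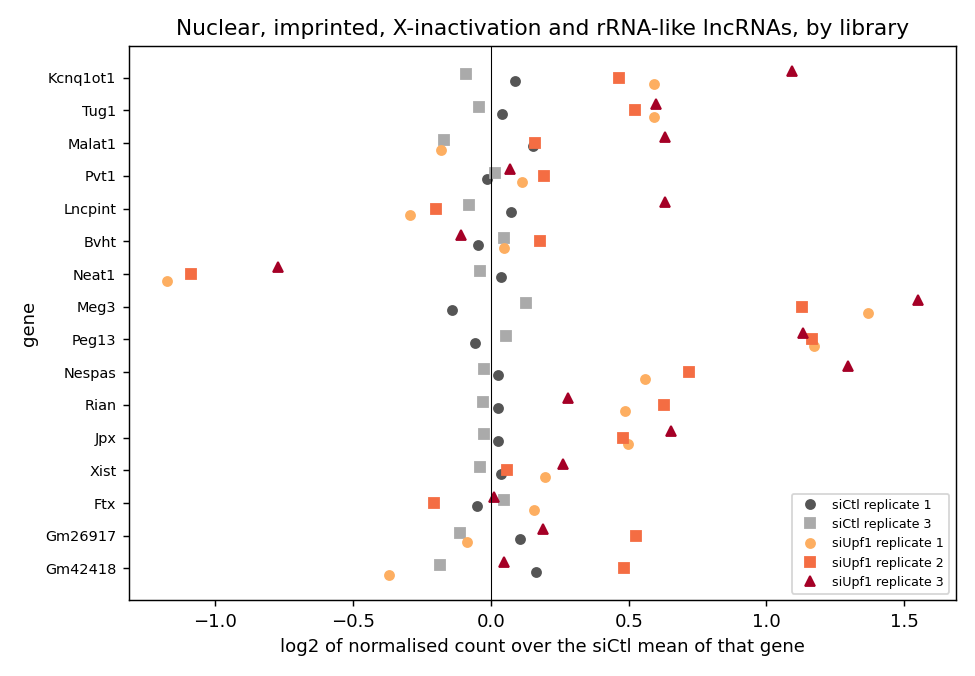
Normalised count in each library over the siCtl mean of the same gene, on a log2 scale, for the nuclear and chromatin, imprinted, X-inactivation centre and rRNA-like lncRNAs. Neat1 is low in every siUpf1 library, Meg3 and Peg13 are high in all 3, siUpf1 replicate 3 (triangles) is the highest for Lncpint, Malat1, Nespas and Kcnq1ot1, and siUpf1 replicate 2 is the highest for Gm42418 and Gm26917.

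At the X-inactivation centre, 3 of 4 listed genes were well expressed and 2 were called higher, where 22% of all genes tested were. Xist, which coats the inactive X chromosome, was abundant, with 15617 and 14820 normalised counts in siCtl and 17423, 15835 and 18245 in siUpf1. Its rise was small (0.17 ± 0.05, adjusted p = 0.00346) and was not called by DESeq2 without siUpf1 replicate 1 (adjusted p = 0.223) or siCtl replicate 3 (0.154). Jpx, an activator of Xist, had 103 and 99.1 in siCtl and 142, 141 and 159 in siUpf1 (0.55 ± 0.21, adjusted p = 0.0229). Jpx lost its call when any single library was left out. Ftx, another positive regulator of Xist, was at 0.00 ± 0.14.

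Of 11 listed lncRNAs with cytoplasmic or broad expression, 9 were well expressed, 4 were called higher and none lower, with a median of 0.18. 2900097C17Rik had 1168 and 1198 normalised counts in siCtl and 1893, 1849 and 1816 in siUpf1 (0.65 ± 0.07), and Tug1, Jpx and Dleu2 were the other 3. Dancr (0.18 ± 0.15) and Crnde (0.06 ± 0.12) were not called. Of 20 neural and developmental lncRNAs listed, 5 were well expressed and 4 were called higher, with a median of 0.54: Meg3, Peg13 and Rian, given above, and Hand2os1. Lhx1os, antisense to the gene of the homeobox factor LHX1, was the fifth at -0.17 ± 0.23. Meg3 passed the minimum through the siUpf1 libraries, so it adds nothing to this count either, and Meg3, Peg13 and Rian were already counted as imprinted genes. Over all genes tested, 22% were called higher and 22.9% lower.

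The most abundant lncRNA genes resemble ribosomal RNA. Gm42418 took 4.27% to 7.32% of all assigned reads, with the lowest share in siUpf1 replicate 1 and the highest in siUpf1 replicate 2, and Gm26917 took 0.603% to 0.918%. Both of the 2 well-expressed genes of the 3 on that list were not called (0.10 ± 0.30 and 0.23 ± 0.24). Gm15564 was also highest in siUpf1 replicate 2, with 41415 and 32986 normalised counts in siCtl and 34685, 54529 and 45275 in siUpf1 (0.27 ± 0.27, not called). Without these 3 genes, the other 242 together took 0.450% to 0.497% of a library.

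A total of 14 of the genes hold an annotated miRNA gene on their strand, and 6 were called higher and 1 lower, where 22% and 22.9% of all genes tested were. Meg3 is among the 6 and passed the minimum through the siUpf1 libraries, so it adds nothing to that count. The calls were not all firm: of 11 alternatives, 6 ended that of Rian, 5 that of Dnm3os, 4 that of A330076H08Rik, 2 that of Dleu2 and 7 that of Mir17hg, among them single libraries left out. Without siCtl replicate 1 none of these 5 was called by DESeq2. Mature miRNAs were not measured here, since polyadenylated RNA was sequenced, and host transcripts are cut when a miRNA is released. The mature miRNAs below, 1 arm of each from RefSeq (GRCm38.p6), are from 5 of the hosts that were called (Mir17hg, Dleu2, Dnm3os, C78859 and Meg3). Those of A330076H08Rik and Rian and the second miRNA of Meg3 are not shown. Capitals mark the seed, bases 2 to 8, by which a miRNA recognises its targets. The first 6 come from Mir17hg.
mmu-miR-17-5p: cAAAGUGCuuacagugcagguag
mmu-miR-20a-5p: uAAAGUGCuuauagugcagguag
mmu-miR-18a-5p: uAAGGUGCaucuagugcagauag
mmu-miR-19a-3p: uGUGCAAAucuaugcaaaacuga
mmu-miR-19b-3p: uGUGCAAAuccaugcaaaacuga
mmu-miR-92a-3p: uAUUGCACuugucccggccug
mmu-miR-15a-5p: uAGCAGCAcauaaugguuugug
mmu-miR-16-5p: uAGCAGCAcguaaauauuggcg
mmu-miR-199a-3p: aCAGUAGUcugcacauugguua
mmu-miR-214-3p: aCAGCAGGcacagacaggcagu
mmu-miR-138-5p: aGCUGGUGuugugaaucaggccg
mmu-miR-770-3p: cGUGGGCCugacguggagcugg

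Shared seeds group miR-17 with miR-20a, miR-19a with miR-19b and miR-15a with miR-16. Mir17hg, host of the proliferative miR-17-92 cluster, had 579 and 621 normalised counts in siCtl and 540, 481 and 475 in siUpf1 (-0.27 ± 0.11, adjusted p = 0.0353). Dleu2, host of miR-15a and miR-16, which restrain the cell cycle, had 334 and 342 in siCtl and 435, 458 and 454 in siUpf1 (0.41 ± 0.12, adjusted p = 0.00217).

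Dnm3os, antisense to Dnm3 and host of miR-199a and miR-214, had 186 and 200 normalised counts in siCtl and 292, 235 and 270 in siUpf1 (0.47 ± 0.16). Dnm3, a dynamin, was called higher as well, at 0.74. C78859, the host of miR-138-2, had 111 and 119 in siCtl and 213, 187 and 213 in siUpf1 (0.83 ± 0.19, adjusted p = 4.38e-05). Meg3, host of miR-770, is described above, and A330076H08Rik, host of Mir344-2, was at 0.52 ± 0.20 (adjusted p = 0.0205). Rian, also above, was the sixth host called higher.

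The remaining miRNA hosts were not called. They were 3110039I08Rik, which holds Mir100, Mirlet7a-2 and Mir125b-1 (0.22 ± 0.10, adjusted p = 0.0547 by DESeq2 and 0.0200 by edgeR), Mir124a-1hg (0.18 ± 0.23), 6720427I07Rik with 3 let-7 genes (0.01 ± 0.19), Ftx, 2900076A07Rik (-0.10 ± 0.19), Lncppara (-0.11 ± 0.23) and Mir22hg (-0.31 ± 0.19). Of the 20 miRNA hosts listed by symbol, only 4 were well expressed (Dleu2, Mir124a-1hg, Mir17hg and Mir22hg), with 1 called higher, 1 lower and a median of -0.04.

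Genes that hold snoRNA genes but are not named as hosts were examined after the values of the left-out hosts were seen. In GENCODE M21, 13 of the 245 hold an annotated snoRNA or scaRNA gene on their strand. Of these, 3 were called lower and 2 higher (Rian and AI506816, the latter at 0.24), with a median of 0.16, where 22.9% and 22% of all genes tested were. The 5 that hold 2 or more such genes had a median of -0.32, with 3 called lower and 1 higher. 2410006H16Rik, with Snord49a, Snord49b and Snord65 at chr11:62602877-62604807, had 7370 and 7656 normalised counts in siCtl and 3823, 4099 and 3873 in siUpf1 (-0.94 ± 0.05, adjusted p = 3.59e-78). 1110038B12Rik, with Snord52 among the snoRNA genes it holds, at chr17:34950238-34952471, had 5362 and 5561 in siCtl and 2639, 2643 and 2625 in siUpf1 (-1.05 ± 0.05, adjusted p = 2.44e-95). These were the lncRNA genes with the lowest adjusted p of all 245, at about the size of change of Zfas1 and Snhg12. 1810032O08Rik, with Snord1a, Snord1b and Snord1c, fell to 80.01% of siCtl (-0.32, adjusted p = 0.0108), while Dancr (Snora26), Rab26os (Snord60, 0.34), AA465934 (Snord7, 0.29) and Gm15832 (Snord89, 0.32) had positive values and were not called.

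The other strong falls had no shared annotation. Ptprv, a receptor-type tyrosine phosphatase gene that RefSeq lists as a transcribed pseudogene, had 353 and 270.8 normalised counts in siCtl and 127, 137 and 122 in siUpf1 (-1.28 ± 0.18), the lowest of the 245. Gm45589 had 221 and 268 in siCtl and 110, 91.6 and 99.8 in siUpf1 (-1.28 ± 0.20). 4933412E12Rik had 596 and 648 in siCtl and 320, 296 and 280 in siUpf1 (-1.06 ± 0.12), and Gm16973 had 628 and 604 in siCtl and 374, 300 and 297 in siUpf1 (-0.92 ± 0.13). Tctn2, a gene of the ciliary transition zone, had 270 and 262 in siCtl and 136, 164 and 161 in siUpf1 (-0.79 ± 0.17).

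Tctn2 also shows that the type in the table is not always that of RefSeq. RefSeq lists 14 of the 245 as protein-coding by symbol, and 5 of these were called lower and 1 higher (Gm46430, 0.31), with a median of -0.10. Besides Tctn2 the lower ones were Spata5l1 (-0.32), the mitochondrial phosphatase gene Ptpmt1 (-0.24), Ifi30, a lysosomal thiol reductase (-0.76 on the log2 scale, from 2947 ± 122 normalised counts, SD, n = 2, to 1746 ± 137, SD, n = 3) and Gm32856 (-0.74). Of the 155 genes that RefSeq lists as lncRNA, 46 were called higher and 12 lower, with a median of 0.18, and 74 symbols were not matched there. Over all genes tested, 22% were called higher and 22.9% lower.

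Where a lncRNA gene sits beside a coding gene, the pair can share a promoter region. By the GENCODE M21 positions, 66 of the 245 start within 1000 bases of a protein-coding gene on the opposite strand (divergent), 47 overlap one on the opposite strand in another way (antisense), 21 lie within or across a coding gene on the same strand, and 111 touch none. Of the divergent genes 17 were called higher and 2 lower, Ptprv and Gt(ROSA)26Sor (median 0.22), of the antisense genes 13 and 5 (0.11), of the same-strand genes 6 and 2 (0.01) and of the rest 31 and 15 (0.12). In that order, 25.8%, 27.7%, 28.6% and 27.9% were called higher and 3.03%, 10.6%, 9.52% and 13.5% lower. Over all genes tested these shares were 22% and 22.9%, and over genes with at least 500 reads 28.1% and 29.3%. The shares called higher were thus alike and near that of genes with at least 500 reads. Reads were counted by strand, and how many reads leaked to the opposite strand was not measured. A partner can be far more abundant than the lncRNA gene, as with Gnas (a siCtl mean of 22027 normalised counts) beside Nespas (144).

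Across 63 divergent pairs with a tested coding partner, the log2 fold changes of lncRNA and partner had a Pearson's r of 0.40 and a Spearman's rho of 0.26, and across 34 antisense pairs these were 0.32 and 0.30. These are descriptions across genes, which share the same 5 libraries and are not independent replicates. Both genes were called in 14 divergent pairs, 11 of them in the same direction, and in 6 antisense pairs, all 6 higher together. Some lncRNA genes of these pairs, such as BC048644 and 9930014A18Rik, passed the minimum through the siUpf1 libraries, where they were high, so the counts lean on the minimum. The coding partners as a group were not shifted, with 19 higher and 18 lower among those of the divergent genes and a median of 0.01.

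**Figure D5:**
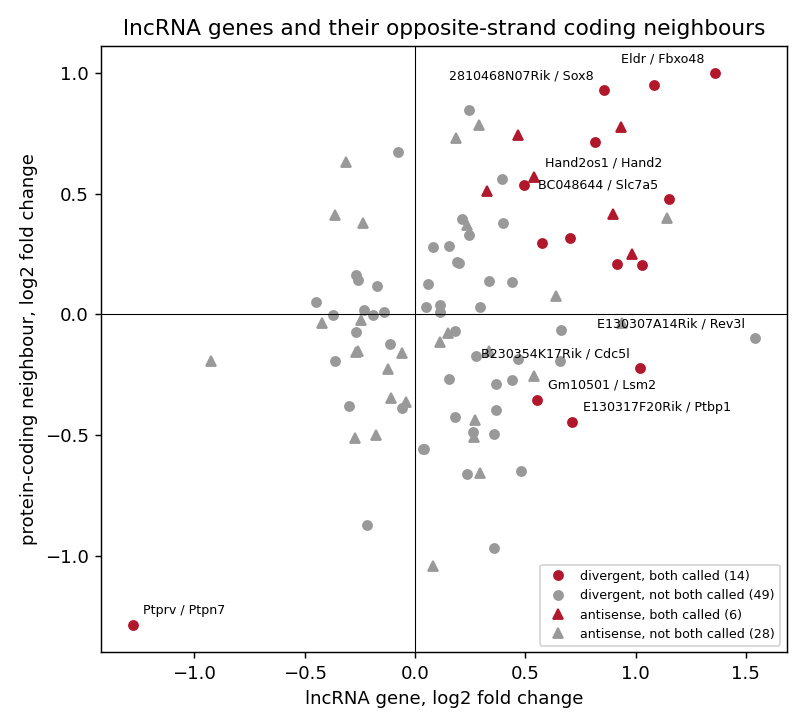
Log2 fold change of the lncRNA gene (horizontal axis) and of its opposite-strand coding neighbour (vertical axis), with circles for 63 divergent and triangles for 34 antisense pairs, red where both genes were called. Most red points lie in the upper right, Ptprv and Ptpn7 lie alone at the lower left, and 3 divergent pairs lie in the lower right (Ptbp1, Lsm2 and Cdc5l as coding genes).

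The stretch between the starts of 3 such pairs is shown because the same short region precedes both genes of a pair. The sequences are read from RefSeq start windows on GRCm38.p6 on the strand of the lncRNA gene, with the bases between both starts in capitals and 25 bases beyond each start in lower case. The stretch shown for Eldr lies at chr11:16951258-16951399 (minus strand), that for Hand2os1 at chr8:57320835-57321007 (minus strand) and that for B230354K17Rik at chr17:45433683-45433855 (plus strand).
Eldr: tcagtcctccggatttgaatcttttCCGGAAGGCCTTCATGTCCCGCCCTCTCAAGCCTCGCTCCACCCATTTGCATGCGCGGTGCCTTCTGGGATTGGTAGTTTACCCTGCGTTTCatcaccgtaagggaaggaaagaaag
Hand2os1: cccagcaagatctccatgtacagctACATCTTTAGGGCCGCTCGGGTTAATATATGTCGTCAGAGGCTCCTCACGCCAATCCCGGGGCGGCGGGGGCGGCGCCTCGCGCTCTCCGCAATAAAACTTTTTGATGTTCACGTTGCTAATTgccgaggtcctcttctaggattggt
B230354K17Rik: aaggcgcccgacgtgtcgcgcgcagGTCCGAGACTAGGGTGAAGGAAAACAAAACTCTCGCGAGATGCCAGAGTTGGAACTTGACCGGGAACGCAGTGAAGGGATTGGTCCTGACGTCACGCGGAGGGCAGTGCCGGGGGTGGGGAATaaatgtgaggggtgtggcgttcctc

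These 3 windows of 300 bases held 16, 23 and 27 CG dinucleotides, and none held TATAAA on the gene's strand in the 50 bases before the start. Over all 27025 RefSeq windows the median was 7 CG and 2.92% held TATAAA there. Of the 245 genes 143 had a window, with a median of 12 CG, 12.5 for those called higher and 10 for those called lower.

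Eldr and Fbxo48, an F-box gene whose RefSeq start lies 93 bases away, both rose, by 1.36 and 1.00 on the log2 scale. Hand2os1 and Hand2, a transcription factor of sympathetic neurons, start 124 bases apart in RefSeq, although M21 also annotates longer overlapping forms, which placed the pair among the antisense genes. Hand2os1 had 1573 and 1714 normalised counts in siCtl and 2443, 2288 and 2446 in siUpf1 (0.54 ± 0.07), and Hand2 was called higher at 0.57 ± 0.04. B230354K17Rik rose (1.02 on the log2 scale, from a mean of 170 to 344 normalised counts) while Cdc5l, a spliceosome component, fell (-0.22, adjusted p = 0.00100 by DESeq2).

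Other pairs that rose together were BC048644 (1.15) with Slc7a5, a transporter of large neutral amino acids (0.48), 2810468N07Rik (0.86) with the transcription factor gene Sox8 (0.93), Gm15663 (0.82) with Tmtc2 (0.72), Cep83os (0.49) with the centriole gene Cep83 (0.54) and Tug1 with Morc2a, a chromatin ATPase (0.29). Ptprv and Ptpn7, both tyrosine phosphatase genes that start 106 bases apart, fell together (-1.28 and -1.29). Besides Cdc5l, the coding partner fell where the lncRNA rose at E130317F20Rik (0.71) with the splicing repressor Ptbp1 (-0.45) and at Gm10501 (0.55) with Lsm2, a subunit of the LSM ring (-0.35). These pairs and other genes named outside the extremes and lists were chosen after their values were seen. Of the lncRNA genes in these pairs, BC048644, 2810468N07Rik, E130317F20Rik and Gm10501 had siCtl means under 100 (61.6, 98.2, 73.2 and 84.9). They passed the minimum through the siUpf1 libraries, where they were high.

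Longer lncRNAs had larger values. In 4 groups of 61 or 62 genes by exon length, up to 1764, 2941 and 4827 nt and above, the medians were 0.04, 0.10, 0.16 and 0.34, and 9, 13, 15 and 30 genes were called higher against 6 lower in each. In the same length ranges the medians of well-expressed protein-coding genes were -0.07, -0.09, -0.03 and 0.03. Of these coding genes 16.96%, 21.69%, 26.17% and 33.26% were called higher and 34.28%, 35.17%, 31.24% and 26.75% lower. The lncRNA shares called higher were 14.52%, 21.31%, 24.59% and 49.18%, above the coding share in the longest group only. At most 9.84% of the lncRNA genes in any group were called lower. The 34 genes with a single exon had 13 higher and none lower (at most 1 exon in any M21 isoform, DESeq2), and the 211 spliced genes 54 higher and 24 lower, with medians of 0.14 and 0.16. The shares called higher were 38.2% and 25.6%, where 22% of all genes tested and 28.1% of genes with at least 500 reads were. Of the spliced genes 11.4% were called lower, where 22.9% and 29.3% were.

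Short sequence matches in the exons of the lncRNAs were read with this length trend beside them. The 7-mer GATAATT, which pairs with bases 2 to 8 of the antisense strand of the Upf1 siRNA, was on the transcribed strand of any isoform of 48 genes (19.6%), with a median log2 fold change of 0.23 against 0.12 without it. The 7-mer AACCTTG, which pairs with the same bases of its sense strand, was in 50 genes, with medians of 0.12 and 0.16. Genes with either were longer (median 4797 and 4737 nt, against 2545 and 2678 nt without). GCAGTAC, known as a raised 7-mer from earlier results of these data, was in 34 genes, with medians of 0.32 with it and 0.11 without. Of the 34, 17 were called higher, where 22% of all genes tested were, and median lengths were 5040 nt with it and 2776 nt without. Since this 7-mer was known from the same data, its higher values are not an independent observation. Among the genes longer than the median of 2941 nt, the medians with and without were 0.25 and 0.18 for GATAATT, 0.17 and 0.24 for AACCTTG and 0.42 and 0.17 for GCAGTAC. A match is a description of the sequence and not a binding site.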

How the data were processed

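RNA-seq of N2A cells gave 2 siCtl and 3 siUpf1 libraries, grouped by their labels. Per the labels and the study's methods, the authors trimmed reads with fastp, mapped them to GRCm38.p6 with STAR 2.7.0f and counted exon reads by strand with featureCounts (Subread 1.6.4); the deposited values are raw read counts per gene, not normalised or pooled. All columns had a sample. The whole table was fitted with DESeq2 1.42.0 (R 4.3.3): a Wald test of group alone, with median-of-ratios size factors, Benjamini-Hochberg adjustment over all genes tested and independent filtering. All 245 lncRNA genes were tested. The members, gene lists, position classes and sequence searches were chosen with earlier results of these data known. Named were Upf1, members of the lists, miRNA hosts, the 8 largest and 8 smallest called changes without overlap, the 5 most abundant, genes at the minimum, and opposite-strand neighbours. Gene positions, types and isoforms are from GENCODE M21 on the same build, which holds all 245; the study used M22 or M25. Alternatives were edgeR 4.0.16's quasi-likelihood test, other size factors and filters, a replicate block, each library left out and other minima. Scripts were tested on simulated counts. With 2 libraries against 3, no exact permutation test on 1 gene can reach a p under 0.1, and none was used. Counts hide PCR duplicates and understate the error. Some listed marker genes are not reported here.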

Additional observations from a re-analysis of the deposited data

How the results depend on the processing

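The 67 genes called higher were 93 with edgeR, 66 and 68 with TMM and total-count size factors, and 46 to 61 with a single library left out; the 24 called lower were 34, 24 and 22, and 14 to 19 with a library left out. Of the single libraries left out, the siCtl ones gave the lowest counts: without replicate 1 46 higher and 14 lower, and without replicate 3 46 and 15. All 91 calls were kept with edgeR and 47 (33 higher, 14 lower) under each of the 11 refits. No call took the opposite direction. The labels do not say whether libraries of the same replicate number were paired. Deviations of same-numbered libraries had correlations of -0.09 and -0.07 across 11898 genes. These values cannot decide it, because the siCtl deviations of replicates 1 and 3 from their shared mean mirror each other. With the number as a replicate block 39 genes were called higher and 14 lower, and 3919 of all genes rather than 6822. A minimum of 1000 summed reads left 110 genes, 29 higher, 21 lower and a median of 0.12, and a mean of the group means of at least 100 left 238 genes with a median of 0.12. The median was 0.13 to 0.17 with a library left out. Upf1 was between -1.11 and -1.07 throughout. Leaving out members with snoRNA genes (65 higher, 21 lower) or those RefSeq lists as protein-coding (66 and 19), chosen after seeing the data, changed little. Of 506 refits of the 46 lncRNA genes that the naming rule gave (other genes named are not in this tally), 35 lost a call, 3 gained one and none reversed a called direction. The median SE of the 245 log2 fold changes was 0.19, so smaller changes lay within the error of most of these genes.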
